A study of Drosophila melanogaster with 33 samples.

Results

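The expression of 10 genes of glial fate and glial subtype was followed in Drosophila melanogaster larval brains mutant for l(3)mbt and in tumours grown from such brains. The genes were repo, gcm, gcm2, wrapper, zyd, alrm, naz, Eaat1, Gs2 and moody, and each was read from the probe set annotated to that gene alone. Of the 10 genes, 9 had a probe set of their own, among 11982 genes of the array that had one. Eaat1 had none and is not analysed here. All 9 passed a low-value filter, which asked for more than 4 on the log2 scale in 3 or more arrays and left 8264 genes for testing.

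Glia of the fly brain arise when the transcription factor Gcm switches on a glial programme, which repo then keeps up in nearly all glia outside the midline. The mature cells divide the brain between them. Cortex glia wrap neuronal cell bodies, astrocyte-like glia send processes into the synaptic neuropil and clear transmitter, and perineurial and subperineurial glia form the blood-brain barrier. The array values of bulk tissue cannot tell fewer cells of a type apart from less RNA of a gene per cell.

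The members are ordered here by role. For glial fate, repo (probe set 1625431_at) encodes a homeodomain protein and defines lateral glia. The genes gcm (1631126_at) and gcm2 (1633591_at) encode related Gcm-domain factors, also used in lamina neurons and plasmatocytes. They lie near each other, with 2 protein-coding genes, CG3841 and CG4382, between them in the RefSeq gene order of Release 6 of the genome. For cortex glia, wrapper (1622923_at) encodes an immunoglobulin-domain surface protein and zyd (1623552_s_at) an exchanger of calcium for sodium. For astrocyte-like glia, alrm (1629996_at) encodes a leucine-rich repeat protein, and naz (1635456_at) is used as a marker of these cells. Gs2 (1630653_a_at) encodes glutamine synthetase, which turns glutamate into glutamine in astrocyte-like and other glia. For barrier glia, moody (1633112_at) encodes a G protein-coupled receptor of subperineurial glia.

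RNA of 33 samples had been hybridised, 1 Affymetrix array per sample, at the sites IRB (24 arrays) and EMBL (9 arrays). The wild type (WT) was w1118, with 3 arrays at each site and no temperature given. Brains homozygous for the temperature-sensitive allele ts1 were taken at 29 °C (3 arrays at each site) and at 17 °C (3 arrays, EMBL). Brains homozygous for the allele E2 were taken at 29 °C and at 17 °C, and ts1/E2 transheterozygous brains at 29 °C, with 3 IRB arrays each. Tumours of ts1 origin, kept by transplanting them from one adult fly to the next, were sampled in culture rounds 1, 5 and 10 with 3 IRB arrays each. A tumour sample can therefore hold cells of the adult host. All groups except WT carry l(3)mbt alleles, and comparisons with WT cannot tell the allele apart from temperature. The array number, 3 per group and site, limits the precision.

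The deposited values are log2 expression values, and the WT mean was equal at both sites for every probe set, to within 6.67e-09. The same site difference reached 7.18 in ts1 brains at 29 °C. Each difference between groups was therefore taken within 1 site. Only the mean over sites, the site effect and the comparison of temperature effects between ts1 (EMBL) and E2 (IRB) combine such differences. Apart from these fitted differences, array ranges over all brains and the order and correlation of group means set arrays of both sites side by side. A gene counted as called when the limma fit gave it an adjusted p below 0.05 (Benjamini-Hochberg, over 8264 genes) together with a change of 2-fold or more, that is 1 on the log2 scale. Differences are log2 values ± standard error (SE), and group means are log2 values ± standard deviation (SD). Group means below 4 lie close to background, so differences from such a group have no exact size. Levels of different probe sets are not comparable. On 5 arrays the values stood apart: replicate 1 of E2 at 29 °C, replicate 2 of E2 at 17 °C, replicate 2 of ts1 at 17 °C and replicates 3 and 6 of ts1 at 29 °C. The 5′ minus 3′ log2 signal of the control transcript eIF4a was -11.96, -2.37, -5.25, -4.94 and -2.38 on these, against -2.22 to -1.10 on the other 28. Replicate 2 of E2 at 17 °C and replicate 6 of ts1 at 29 °C lay only narrowly outside that range. Their median correlations with their own groups were 0.966 and 0.902, against 0.910 to 0.994 on the other 28.

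The glial genes are first described in WT brains, which is no independent check of the tissue labels. In WT brains, repo averaged 11.56 ± 0.08 (SD, n = 6), wrapper 10.65 ± 0.06, alrm 10.91 ± 0.23 and Gs2 11.93 ± 0.71. The other WT means were 9.48 ± 0.29 for gcm, 9.37 ± 0.47 for zyd, 8.97 ± 0.38 for moody, 7.91 ± 0.54 for naz and 5.34 ± 0.29 for gcm2. Each of the 9 genes was thus above background in WT brains, with gcm2 nearest to it.

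**Figure D1:**
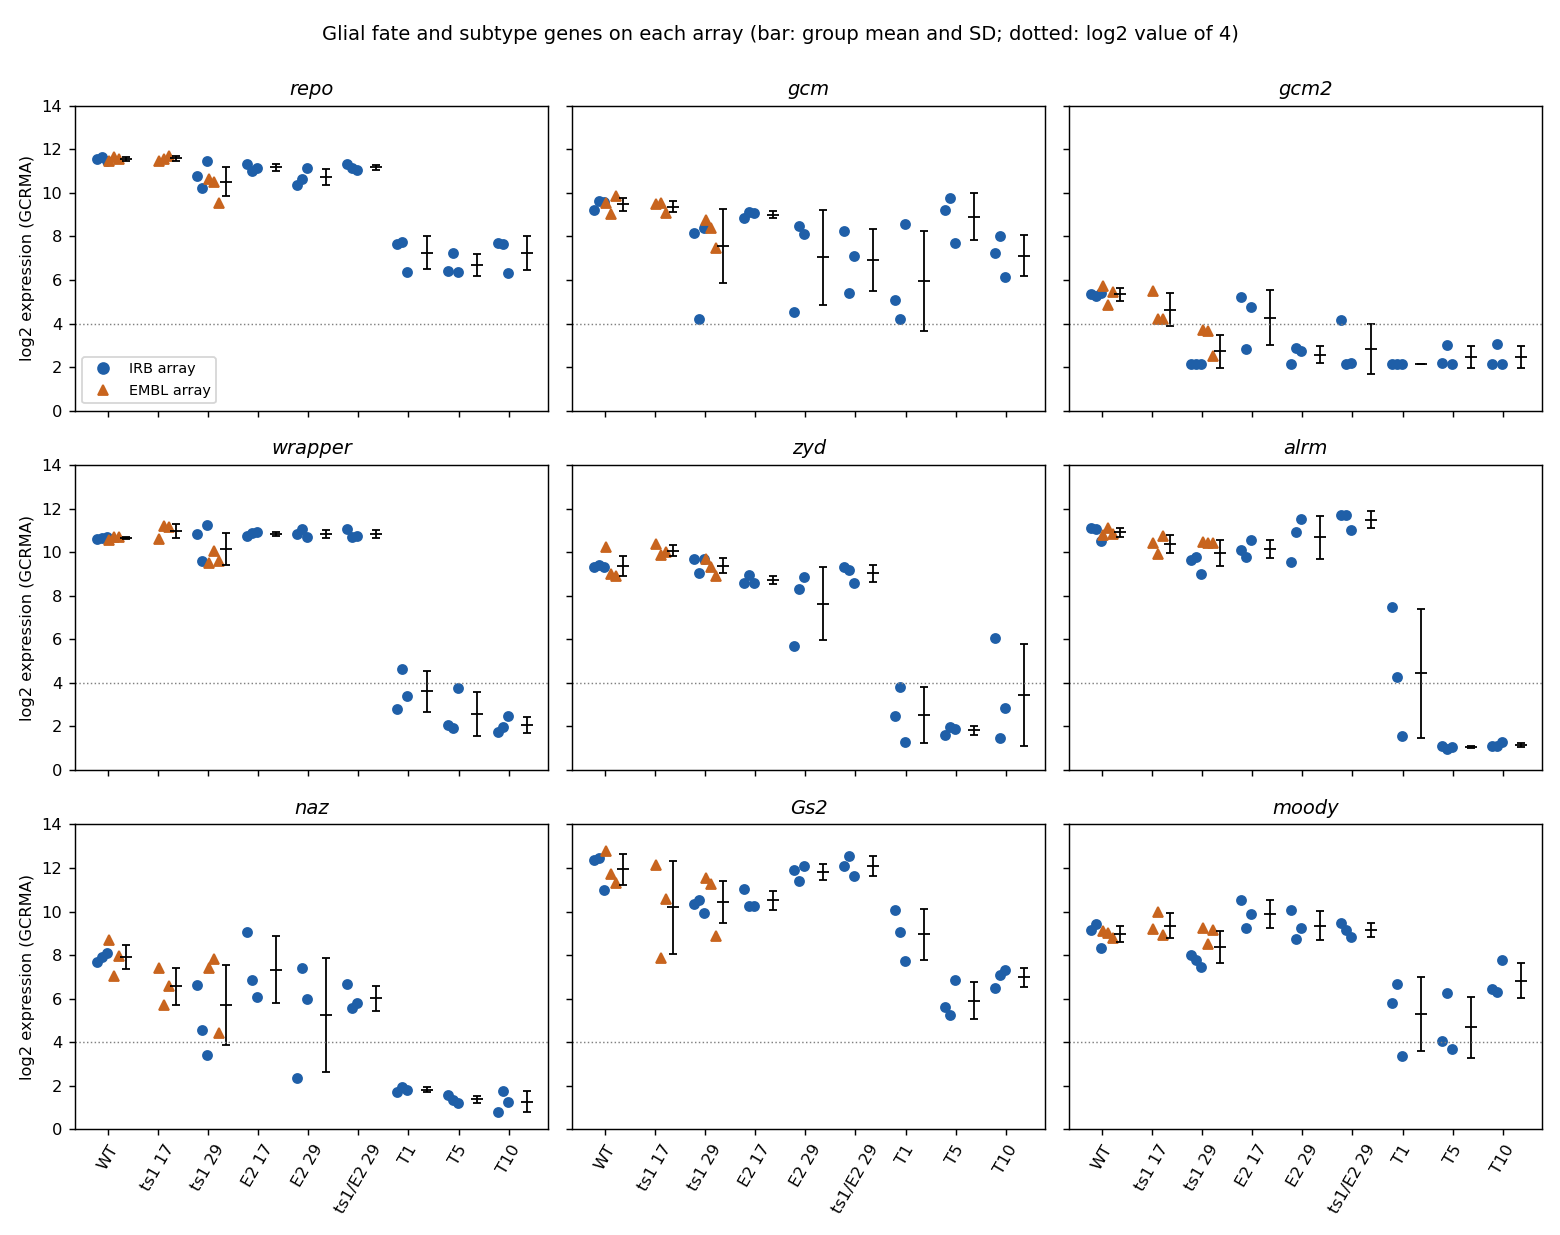
The 9 panels show the log2 expression of each glial gene on all 33 arrays (vertical axis) by group (horizontal axis), with circles for IRB arrays, triangles for EMBL arrays and black bars for group mean and SD; T1, T5 and T10 are tumours of rounds 1, 5 and 10. The tumour arrays of repo (6.34 to 7.77) lie below all 24 brain arrays (9.52 to 11.71), while those of gcm (4.21 to 9.77) overlap them.

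Among the fate genes, gcm2 was lower than WT in every mutant brain group kept at 29 °C, and gcm and repo showed smaller or less even differences. The 6 WT arrays of gcm2 ran from 4.84 to 5.71, with a median of 5.37. In ts1 brains at 29 °C its values were 3.72, 3.65 and 2.49 at EMBL and 2.15 on each of the 3 IRB arrays. In E2 brains at 29 °C they were 2.13, 2.86 and 2.72, and in ts1/E2 brains 4.16, 2.14 and 2.17. All of these arrays lay below all WT arrays of their site, and all 4 group means were below 4. Of all tested genes, 16.9% lay wholly below WT in ts1 brains at EMBL, 26.1% in ts1 brains at IRB, 21.8% in E2 brains at 29 °C and 28.9% in ts1/E2 brains. The optic lobe and lamina also use gcm and gcm2, and the summed signal of their markers was lower in the same groups. The summed signal of 8 such genes, as log2, was 11.49 to 11.99 in ts1 brains at EMBL, 12.25 to 12.51 in ts1 brains at IRB, 12.27 to 12.49 in E2 brains and 11.99 to 12.21 in ts1/E2 brains at 29 °C, against 12.73 to 12.83 in WT. At 17 °C it was 12.36 to 12.94 in ts1 and 12.66 to 13.00 in E2 brains, overlapping WT. The brightest genes weigh most in such a sum. The plain mean of the 8 log2 values in E2 brains at 29 °C (6.68 to 8.30) overlapped that of WT at IRB (8.20 to 8.72). The marker eya was not lower throughout. It averaged 9.59 in ts1 brains at EMBL, 10.34 at IRB, 9.54 in E2 and 9.17 in ts1/E2 brains at 29 °C, against 9.24 in WT. Of the 8 genes, dac alone was called in ts1 brains at EMBL (11.58 in WT and 8.92 ± 0.33 (SD, n = 3) in ts1), dac, tll and gl were called in ts1 brains at IRB, tll alone was called in E2 and in ts1/E2 brains at 29 °C, and none was called at 17 °C. The EMBL call of dac held without any single array. The call of tll was lost without replicate 1 of E2 (-1.33, adjusted p = 0.129) and without replicate 2 of ts1/E2 (-1.86, adjusted p = 0.0583). At IRB the calls of dac, tll and gl in ts1 brains were all lost without WT replicate 1 (-1.71, adjusted p = 0.139, -1.94, 0.0582, and -3.17, 0.0817) or WT replicate 2 (-1.80, 0.0991, -1.81, 0.0708, and -3.20, 0.0670). Those of dac and tll were also lost without WT replicate 3 (-1.71, 0.104, and -1.78, 0.0654), that of dac without ts1 replicate 4 (-1.73, 0.101) or 5 (-1.33, 0.151), and that of tll without ts1 replicate 6 (-1.32, 0.156). The part of these markers in the gcm2 and gcm differences was not tested. The calls of gcm2 were -2.05 ± 0.53 (adjusted p = 0.0131) for ts1 at EMBL and -3.19 ± 0.53 (adjusted p = 0.000235) for ts1 at IRB. They were -2.77 ± 0.53 (adjusted p = 0.000995) for E2 and -2.52 ± 0.53 (adjusted p = 0.00261) for ts1/E2, all from limma. The IRB comparisons share the same 3 WT arrays. Leaving out any single array kept the 3 IRB calls. The EMBL call was lost without replicate 3 of ts1 (-1.65, adjusted p = 0.0849), without WT replicate 4 (-1.86, 0.0576) or without WT replicate 6 (-1.99, 0.0505). Without the 5 arrays that stood apart, gcm2 was at -1.65 (adjusted p = 0.0184) for EMBL, -3.19 for IRB and -2.55 for E2.

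At 17 °C gcm2 was less even. Its values were 5.51, 4.20 and 4.19 in ts1 brains and 5.20, 2.84 and 4.77 in E2 brains. The low E2 value came from replicate 2, 1 of the arrays that stood apart, though only narrowly. Neither group passed against WT (ts1 -0.70 ± 0.53, adjusted p = 0.884, and E2 -1.07 ± 0.53, adjusted p = 0.284, limma). Between 29 °C and 17 °C, gcm2 fell by 1.70 ± 0.53 in E2 brains (adjusted p = 0.0467), and its arrays overlapped between the temperatures. That call was lost without replicate 1 of E2 at 17 °C (-1.24, adjusted p = 0.246), replicate 3 of E2 at 17 °C (-1.45, 0.167) or replicate 1 of E2 at 29 °C (-1.49, 0.176), and with all 5 arrays that stood apart left out it was -2.20 (0.0118). In ts1 brains the temperature difference was -1.35 ± 0.53 (adjusted p = 0.219), and the difference between the alleles in this effect was 0.36 ± 0.74 (adjusted p = 0.887). The ts1 arrays here are from EMBL and the E2 arrays from IRB, so allele and site cannot be told apart in that last value.

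The level of repo in ts1 brains at 17 °C was close to that of WT, and it was called lower in ts1 brains at 29 °C at EMBL. Its 6 WT arrays ran from 11.47 to 11.67 with a median of 11.55, and the ts1 arrays at 17 °C were 11.47, 11.56 and 11.71. In ts1 brains at 29 °C the values were 10.64, 10.50 and 9.52 at EMBL and 10.78, 10.22 and 11.47 at IRB. The EMBL arrays lay below all WT arrays, and at IRB replicate 6 reached the WT range. The difference from WT was -1.34 ± 0.38 at EMBL (adjusted p = 0.0256), -0.74 ± 0.38 at IRB (adjusted p = 0.233) and -1.04 ± 0.27 as the mean of both sites (adjusted p = 0.0109, limma). The sites did not differ beyond error in this effect (IRB minus EMBL 0.60 ± 0.54, adjusted p = 0.532).

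The lowest EMBL value of repo belonged to replicate 3, an array with a weak 5′ signal. Without it the EMBL difference was -0.98 (adjusted p = 0.156, or 0.0798 with all 5 arrays that stood apart left out), and the call was also lost without WT replicate 4 (-1.38, adjusted p = 0.0536), 5 (-1.30, 0.0832) or 6 (-1.33, 0.0742). The mean of both sites dropped under the 2-fold limit without replicate 3 (-0.86, adjusted p = 0.0406) or replicate 5 (-0.88, adjusted p = 0.0406). Without all 5 arrays that stood apart that mean was -1.02 (adjusted p = 0.00971). At EMBL the neuronal genes nSyb (-1.63 ± 0.41, adjusted p = 0.0106) and fne (-1.55 ± 0.33, adjusted p = 0.00307) were lower in the same comparison (nSyb -1.32, adjusted p = 0.0725, without replicate 3), and their part in the repo difference was not tested. In E2 brains at 29 °C repo was at 10.38, 10.65 and 11.13 (-0.83 ± 0.38, adjusted p = 0.126), and in ts1/E2 brains at 11.31, 11.13 and 11.06 (-0.39 ± 0.38, adjusted p = 0.645). In E2 brains at 17 °C it was at 11.34, 11.02 and 11.16 (-0.38 ± 0.38, adjusted p = 0.662). In these groups all arrays lay below the 3 IRB arrays of WT. So did 21.8% of all tested genes in E2 brains at 29 °C, 28.9% in ts1/E2 brains and 24.3% in E2 brains at 17 °C. The 29 °C and 17 °C arrays of ts1 did not overlap either, at -1.36 ± 0.38 (adjusted p = 0.0538), or -1.02 (adjusted p = 0.203) without the arrays that stood apart. Of all tested genes, 9.92% lay wholly lower at 29 °C than at 17 °C in ts1 brains.

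The gcm probe set varied widely within groups. Its WT arrays ran from 9.05 to 9.86 with a median of 9.56. In ts1 brains at 29 °C the values were 8.77, 8.38 and 7.47 at EMBL and 8.18, 4.21 and 8.37 at IRB. In E2 brains at 29 °C they were 4.55, 8.46 and 8.13, and in ts1/E2 brains 8.25, 5.40 and 7.08. Every one of these arrays lay below the WT arrays of its site, and the lowest array of each IRB group stood at 4.21, 4.55 and 5.40. No brain difference of gcm was called: -1.27 ± 1.06 (adjusted p = 0.598) for ts1 at EMBL, -2.56 ± 1.06 (0.129) for ts1 at IRB, -2.43 ± 1.06 (0.114) for E2 and -2.57 ± 1.06 (0.166) for ts1/E2. Without the 5 arrays that stood apart, the ts1 difference at IRB was -3.28 ± 1.10 (adjusted p = 0.0418) and that of E2 -1.18 (adjusted p = 0.628). The E2 difference passed when replicate 2 alone was left out (-3.14, adjusted p = 0.0394). At 17 °C gcm was at 9.48, 9.55 and 9.08 in ts1 brains and 8.83, 9.12 and 9.07 in E2 brains, which gave differences of -0.11 and -0.47 that did not pass.

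Neither cortex glia gene was called in a mutant brain group. Over all 18 mutant brain arrays, wrapper ran from 9.53 to 11.25, against 10.56 to 10.71 in WT. Its largest difference from WT was in ts1 brains at EMBL, with values of 9.53, 10.07 and 9.59 (-0.92 ± 0.42, adjusted p = 0.205), and the next was 0.33 ± 0.42 in ts1 brains at 17 °C. The EMBL arrays lay below WT, whereas those of E2 and ts1/E2 brains lay above the IRB arrays of WT by 0.18 to 0.20 on average. Of all tested genes, 12.4% lay wholly above WT in E2 brains at 29 °C, 17.5% in E2 brains at 17 °C and 16.1% in ts1/E2 brains. For zyd the WT arrays ran from 8.91 to 10.22, and ts1 brains at 29 °C averaged 9.39 ± 0.35 (SD, n = 6). Its lowest brain mean was that of E2 at 29 °C, with arrays at 5.71, 8.31 and 8.85 (-1.75 ± 0.79, adjusted p = 0.124). The first of these came from replicate 1, and without the arrays that stood apart the difference was -0.79 (adjusted p = 0.695). It passed without replicate 3 instead (-2.36, adjusted p = 0.0440).

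Among the astrocyte-like genes, naz was called lower in ts1 brains at 29 °C, while alrm and Gs2 were not called in any brain comparison with WT. The WT arrays of naz ran from 7.05 to 8.70 with a median of 7.95. In ts1 brains at 29 °C they were 7.43, 7.82 and 4.41 at EMBL and 6.63, 4.57 and 3.41 at IRB. The IRB arrays lay below all 3 IRB arrays of WT, and the EMBL arrays overlapped WT. The difference was -3.03 ± 0.98 at IRB (adjusted p = 0.0484), -1.35 ± 0.98 at EMBL (adjusted p = 0.513, and -0.28 with an adjusted p of 0.928 without replicate 3 and the other arrays that stood apart) and -2.19 ± 0.69 as the mean of both (adjusted p = 0.0388, limma). At IRB the call was lost without replicate 5 of ts1 (-2.88, adjusted p = 0.0889), replicate 6 (-2.30, 0.227), or any of WT replicates 1 (-3.14, 0.119), 2 (-3.02, 0.117) and 3 (-2.95, 0.110). The mean of both sites was lost too without ts1 replicate 3 (-1.66, adjusted p = 0.130), 5 (-2.12, 0.0760) or 6 (-1.83, 0.0924), or without WT replicate 1 (-2.24, 0.0648), 2 (-2.19, 0.0675), 3 (-2.15, 0.0727), 4 (-2.0, 0.0920) or 6 (-2.18, 0.0716). Without all 5 arrays that stood apart, it was -1.29 (adjusted p = 0.0579) for the mean and -2.30 (adjusted p = 0.0242) for IRB.

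The remaining brain groups gave naz differences of -2.67 ± 0.98 in E2 at 29 °C (adjusted p = 0.0716), -1.89 ± 0.98 in ts1/E2 (0.295), -1.33 ± 0.98 in ts1 at 17 °C (0.880) and -0.58 ± 0.98 in E2 at 17 °C (0.832). Its E2 arrays at 29 °C were spread widely, at 2.35, 7.41 and 5.96. The lowest was again replicate 1, and without the arrays that stood apart the E2 difference was -1.22 (adjusted p = 0.351). It passed when replicate 2 (-3.75, adjusted p = 0.00896) or replicate 3 (-3.03, adjusted p = 0.0464) was left out instead, so single arrays decide this value. In ts1/E2 brains, naz passed without the arrays that stood apart (-1.89, adjusted p = 0.0343).

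Over the mutant brains alrm ran from 8.98 to 11.73. The ts1 arrays at 29 °C were 10.46, 10.43 and 10.44 at EMBL and 9.63, 9.79 and 8.98 at IRB, all below the WT arrays of their site (10.54 to 11.12 over both). The differences were -0.46 ± 0.77 at EMBL (adjusted p = 0.899) and -1.44 ± 0.77 at IRB (adjusted p = 0.254), and ts1/E2 brains stood highest at 11.72, 11.73 and 11.04 (0.59 ± 0.77, adjusted p = 0.765). For Gs2 the spread within groups was large, with WT arrays from 10.98 to 12.78 and a single value of 7.87 in replicate 2 of ts1 at 17 °C, an array with a weak 5′ signal. Its differences from WT ran from -1.74 ± 0.78 in ts1 at 17 °C (adjusted p = 0.425) to 0.16 ± 0.78 in ts1/E2 (adjusted p = 0.964). Without that array and the others that stood apart, the ts1 difference at 17 °C was -0.58 (adjusted p = 0.857).

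The barrier gene moody was not called in any mutant brain group. Its WT arrays ran from 8.33 to 9.44. The ts1 brains at 29 °C were at 9.26, 8.50 and 9.15 at EMBL (-0.00 ± 0.64, adjusted p = 1.0) and at 8.01, 7.78 and 7.45 at IRB (-1.22 ± 0.64, adjusted p = 0.245). The IRB arrays lay below the WT arrays there, and the EMBL arrays overlapped WT. The difference between the sites was -1.22 ± 0.91 (adjusted p = 0.445). E2 brains at 17 °C held the highest moody value, 10.53, on replicate 1, and averaged 0.92 ± 0.64 above WT (adjusted p = 0.507).

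**Figure D2:**
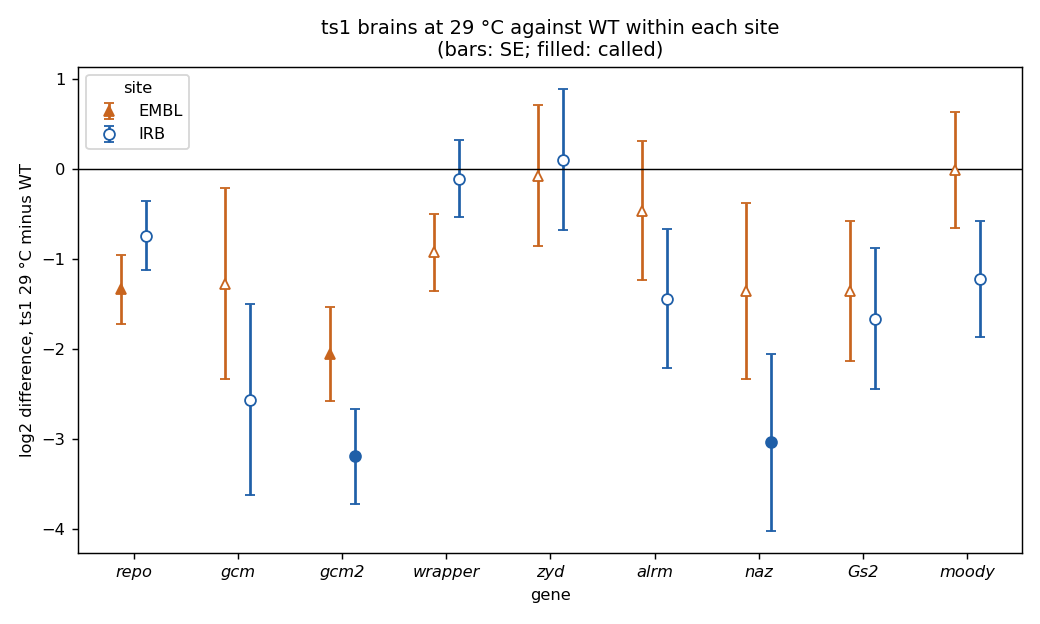
Log2 difference between ts1 brains at 29 °C and WT (vertical axis) for the 9 genes (horizontal axis), with triangles for EMBL, circles for IRB, bars for ±1 SE and filled symbols for called genes. The called genes are repo and gcm2 at EMBL and gcm2 and naz at IRB, and no gene differed between the sites at the call rule.

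In counts, 2 of the 9 genes were called lower in ts1 brains at 29 °C at EMBL, where 3.07% of all tested genes were. At IRB it was again 2 of 9, against 5.68% of all genes, and over the mean of both sites 3 of 9, against 4.39%. The single call in E2 brains at 29 °C stood against 5.08%, and the single call in ts1/E2 brains against 2.53%. No gene was called in ts1 brains at 17 °C (0.629% of all genes lower) or in E2 brains at 17 °C (2.29%). At an unadjusted p under 0.05 the limma fit held 1 (Gs2) and 0 of the 9 genes there. None of the 9 was called higher than WT in any brain group. Of all tested genes, 3.69% were called higher in ts1 brains at 29 °C at EMBL and 3.11% at IRB. The share was 0.557% in ts1 and 1.98% in E2 brains at 17 °C, and 3.98% in E2 and 3.34% in ts1/E2 brains at 29 °C. Between the 29 °C genotypes at IRB no member was called, whether ts1/E2 was set against E2, ts1/E2 against ts1 or E2 against ts1 (0.109%, 6.4% and 5.87% of all genes called either way). At an unadjusted p under 0.05 they held 0, 3 and 2 of the 9 genes. The largest of these differences was that of alrm, 2.03 ± 0.77 higher in ts1/E2 than in ts1 brains, with no overlap between the arrays (adjusted p = 0.117). Of all tested genes, 15.7% lay wholly higher in ts1/E2 than in ts1 brains. Between 29 °C and 17 °C, 1 of 9 was called lower in E2 (3.19% of all genes) and 0 in ts1 (0.52%), where 3 (repo, gcm2 and wrapper) had an unadjusted p under 0.05. The temperature effect was measured at EMBL for ts1 and at IRB for E2, so allele and site cannot be told apart in its comparison. It differed between the 2 in 0 of 9 genes (0.375% of all genes either way), and 1, wrapper, had an unadjusted p under 0.05. For the site effect in ts1 brains it was also 0 of 9 (3.68% either way), and 0 had an unadjusted p under 0.05.

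**Figure D3:**
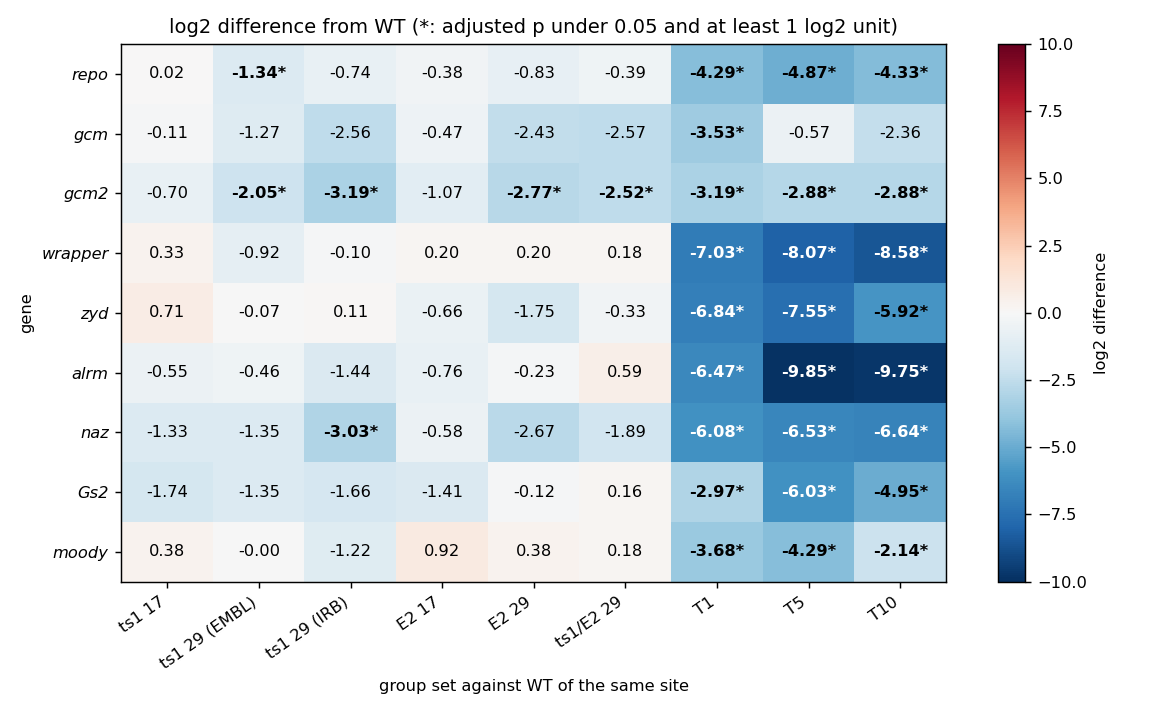
Log2 difference from WT (colour and printed value) of the 9 glial genes (rows) in each mutant brain and tumour group (columns), with an asterisk for called genes. The 3 tumour columns are far below WT for 8 genes, whereas gcm in round 5 is at -0.57.

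In tumours the picture was broad. Of the 9 genes, 9 were called lower than WT in round 1, 8 in round 5 and 8 in round 10, where 14.3%, 13.7% and 13.5% of all tested genes were called lower. These comparisons share the same 3 WT arrays. Over the 9 tumour and 24 brain arrays, 4 of the 9 genes (repo, wrapper, alrm and naz) did not overlap and were lower in every tumour, as were 4.34% of all tested genes. The genes gcm, gcm2, zyd, Gs2 and moody overlapped the brain range on at least 1 array. The median difference from WT over the 9 genes was -4.29, -6.03 and -4.95 in rounds 1, 5 and 10, and over all tested genes it was -0.01, 0.09 and 0.09.

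The tumours kept a reduced level of repo. Its values were 7.65, 7.77 and 6.37 in round 1, 6.43, 7.25 and 6.36 in round 5, and 7.70, 7.65 and 6.34 in round 10. None of the 9 arrays fell below 4, and none reached the lowest brain array at 9.52. The differences from WT were -4.29 ± 0.38 (adjusted p = 2.41e-09), -4.87 ± 0.38 (2.01e-10) and -4.33 ± 0.38 (1.47e-09), which is 19.6-fold, 29.3-fold and 20.1-fold lower. Among the rounds repo did not differ beyond error (round 10 minus round 1 -0.03 ± 0.38, adjusted p = 1.0).

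In tumours gcm and gcm2 were both called lower than WT in round 1, and gcm2 alone in rounds 5 and 10. A difference between the 2 genes was not tested. All 9 tumour values of gcm2 lay between 2.14 and 3.07, near background, and it was called in each round (-3.19, -2.88 and -2.88, each ± 0.53, with adjusted p = 3.22e-05, 9.96e-05 and 0.000107). The gcm arrays stood at 5.08, 4.21 and 8.56 in round 1, 9.23, 9.77 and 7.72 in round 5, and 7.23, 8.0 and 6.12 in round 10. The background of the gcm probe set itself was not measured, and its lowest tumour and brain arrays both stood at 4.21. No tumour array of gcm was below 4, and the round 5 arrays overlapped WT. It was called lower in round 1 (-3.53 ± 1.06, adjusted p = 0.0112), and not in round 5 (-0.57 ± 1.06, adjusted p = 0.736) or round 10 (-2.36 ± 1.06, adjusted p = 0.0941). The round 1 call was lost without replicate 1 (-3.09, adjusted p = 0.0519) or replicate 2 (-2.66, adjusted p = 0.0845). From round 1 to round 5 gcm differed by 2.96 ± 1.06 (adjusted p = 0.136). That difference passed without replicate 3 of round 1, the high array (4.26, adjusted p = 0.0143).

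Both cortex glia genes were near background in tumours. The wrapper arrays were 2.81, 4.65 and 3.41 in round 1, 2.06, 1.93 and 3.76 in round 5, and 1.77, 1.97 and 2.50 in round 10. Only replicate 2 of round 1 exceeded 4, and no array overlapped the brains (lowest 9.53). Its differences from WT were -7.03 ± 0.42 (adjusted p = 2.28e-12), -8.07 ± 0.42 (1.36e-13) and -8.58 ± 0.42 (4.21e-14). The zyd arrays were 2.49, 3.83 and 1.27, then 1.60, 1.96 and 1.90, then 6.05, 1.47 and 2.83. Replicate 1 of round 10 was the only one above 4, and it reached into the brain range, whose lowest array was at 5.71. The zyd differences were -6.84 ± 0.79 (adjusted p = 1.84e-07), -7.55 ± 0.79 (2.88e-08) and -5.92 ± 0.79 (1.44e-06).

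Of the astrocyte-like genes, naz and alrm reached background and Gs2 did not. All 9 tumour arrays of naz lay between 0.78 and 1.93, with differences of -6.08, -6.53 and -6.64, each ± 0.98 (adjusted p = 2.48e-05, 8.12e-06 and 6.75e-06). For alrm, round 1 was uneven at 7.49, 4.27 and 1.54, while the 6 arrays of rounds 5 and 10 lay between 0.99 and 1.27. Its differences were -6.47 ± 0.77 (adjusted p = 3.31e-07), -9.85 ± 0.77 (2.23e-10) and -9.75 ± 0.77 (2.73e-10). Gs2 was at 10.07, 9.08 and 7.73 in round 1, 5.61, 5.23 and 6.87 in round 5, and 6.49, 7.10 and 7.33 in round 10. No tumour array of Gs2 was below 4, and its differences were -2.97 ± 0.78 (adjusted p = 0.00411), -6.03 ± 0.78 (9.28e-07) and -4.95 ± 0.78 (1.61e-05).

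The barrier gene moody was lower and uneven. Its values were 5.81, 6.69 and 3.38 in round 1, 4.06, 6.27 and 3.71 in round 5, and 6.43, 6.29 and 7.77 in round 10. Replicate 3 of round 10 reached into the brain range, whose lowest array was at 7.45, and 2 tumour arrays were below 4. The differences from WT were -3.68 ± 0.64 (adjusted p = 7.09e-05), -4.29 ± 0.64 (8.04e-06) and -2.14 ± 0.64 (0.0117), or 12.8-fold, 19.6-fold and 4.41-fold lower. The round 10 call was lost without replicate 2 of round 10 (-1.87, adjusted p = 0.0599) or WT replicate 2 (-1.91, adjusted p = 0.0534). The tumour calls of repo, gcm2, wrapper, zyd, alrm, naz and Gs2 against WT held in every setting run, and so did those of moody in rounds 1 and 5.

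Round 1 tumours were set against ts1 brains at 29 °C from the same site, the genotype they came from. Of the 9 genes 6 were lower, against 10.6% of all tested genes. They were repo (-3.56 ± 0.38, adjusted p = 1.02e-07), wrapper (-6.93 ± 0.42, 6.35e-12), zyd (-6.95 ± 0.79, 2.74e-07), alrm (-5.03 ± 0.77, 1.95e-05), naz (-3.05 ± 0.98, 0.0182) and moody (-2.46 ± 0.64, 0.00472). The moody call was lost without replicate 3 of round 1 (-1.50, adjusted p = 0.0567) and the naz call without replicate 4 of ts1 (-2.17, adjusted p = 0.128). Both groups of gcm2 arrays were near background (-0.00 ± 0.53, adjusted p = 1.0). Differences of gcm (-0.97 ± 1.06, adjusted p = 0.518) and Gs2 (-1.31 ± 0.78, adjusted p = 0.204) did not pass, and their arrays overlapped.

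Between culture rounds the change was found in alrm, Gs2 and wrapper. From round 1 to round 5, 2 of 9 genes were called lower (3.39% of all tested genes), alrm by -3.38 ± 0.77 (adjusted p = 0.00768) and Gs2 by -3.06 ± 0.78 (adjusted p = 0.0188). From round 1 to round 10 it was again 2 of 9 (4.17%), alrm by -3.28 ± 0.77 (adjusted p = 0.00774) and wrapper by -1.55 ± 0.42 (adjusted p = 0.0246). Gs2 differed by -1.98 ± 0.78 there (adjusted p = 0.161, or 0.0274 without the arrays that stood apart). From round 5 to round 10 it was 0 of 9 (0.29% either way), and 2, zyd and moody, had an unadjusted p under 0.05. The larger was moody, at 2.15 ± 0.64 higher with no overlap between the rounds (adjusted p = 0.238). Of all tested genes, 9.16% lay wholly higher in round 10 than in round 5.

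Single arrays carried these calls. Without replicate 1 of round 1, the array with alrm at 7.49, alrm differed by -1.85 (adjusted p = 0.0523) from round 1 to 5 and by -1.75 (adjusted p = 0.0567) to round 10. The Gs2 call was lost without replicate 1 (-2.50, adjusted p = 0.140) or 2 (-3.0, 0.0565) of round 1, or replicate 1 (-2.91, 0.0823) or 2 (-2.72, 0.111) of round 5. The wrapper call was lost without replicate 2 of round 1 (-1.03, adjusted p = 0.195) or replicates 1 (-1.39, 0.0910) or 2 (-1.49, 0.0985) of round 10, and the wrapper means were all below 4.

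**Figure D4:**
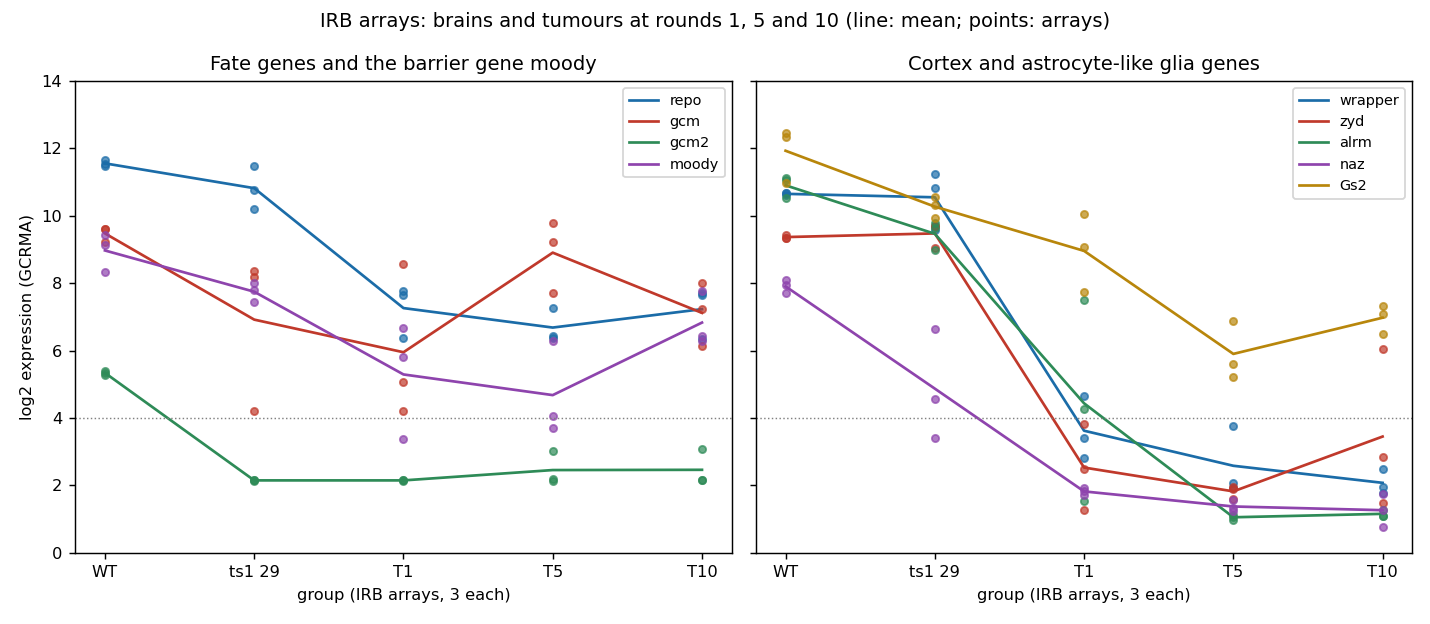
Log2 expression of the 9 glial genes (vertical axis) in WT and ts1 brains at 29 °C of the IRB site and in tumours of rounds 1, 5 and 10 (horizontal axis), with points for arrays and lines through the means of 3 arrays. In tumours wrapper, zyd, naz and gcm2 average below 4 in every round and alrm in rounds 5 and 10, while repo, gcm and Gs2 have no array below 4.

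Other genes of the same glial classes were examined through lists chosen with earlier results of these data known. The list of glutamate and GABA handling also holds neuronal genes, among them Gad1 and VGlut, which are counted with the lists. Of 3 further cortex glia genes, 3 were called lower in each tumour round, where 14.3%, 13.7% and 13.5% of all tested genes were. Cyp4g15, a cytochrome P450 used as a cortex glia marker, was at -5.23, -6.75 and -6.75 (each ± 0.38) against WT in rounds 1, 5 and 10. The gene hoe1 was at -6.02, -6.77 and -6.72 (each ± 0.96) and wun2, a lipid phosphate phosphatase, at -4.12, -5.17 and -3.26 (each ± 0.58). Their list median was -5.23, -6.75 and -6.72. Of 5 measured astrocyte-like genes, 5 were lower in each round, with medians of -4.01, -5.20 and -5.75. The odorant-binding protein gene Obp44a fell from 14.85 in WT to 11.26 ± 1.09 (SD, n = 3) in round 1 and to 5.83 ± 0.25 in round 5 (-3.60 ± 0.36 and -9.03 ± 0.36). Eaat2, of the excitatory amino acid transporter family, was at -3.04, -4.89 and -6.04 (each ± 0.40), and the GABA transporter Gat at -4.01, -3.80 and -5.75 (each ± 0.50). The gene e, which encodes ebony, was at -5.65, -5.67 and -5.61 (each ± 0.90), and the FGF receptor gene htl at -4.99, -5.20 and -4.67 (each ± 0.38).

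Unlike moody, most genes of the barrier list were not called. Of 17 measured genes of barrier glia and septate junctions, 2, 4 and 3 were called lower and 1 higher in rounds 1, 5 and 10, with medians of 0.15, 0.14 and 0.38. Over all tested genes, 14.3%, 13.7% and 13.5% were called lower and 12.7%, 12.9% and 12.3% higher. Septate junctions are also made by epithelia. The ABC transporter gene Mdr65, expressed in subperineurial glia, was at -6.22, -9.31 and -9.02 (each ± 0.91), with 8.58 on its highest round 1 array. Lac was at -1.01, -1.56 and -1.36 (each ± 0.20), and the junction gene pasi1 was higher at 1.40, 1.71 and 1.83 (each ± 0.44). The round 1 calls of Lac and pasi1 were lost when replicate 3 of round 1 was left out (-0.97, and 1.29 with an adjusted p of 0.0564). Lac also fell under the 2-fold limit without replicate 2 of round 1 (-0.99) or WT replicates 1 (-0.98) or 3 (-1.0). The scaffold gene vari was called in rounds 5 (-2.73 ± 0.83) and 10 (-2.59 ± 0.83), and both calls were lost without WT replicate 1 (-2.26, adjusted p = 0.0721, and -2.12, adjusted p = 0.0930), the later one also without replicate 2 of round 10 (-2.51, adjusted p = 0.0515). The trehalose transporter gene Tret1-1 was called in round 5 (-1.77 ± 0.45, adjusted p = 0.00310).

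Of 3 measured genes of the G protein pathway of moody, only Galphao was called, lower in each round (-1.79, -1.64 and -2.06, each ± 0.54). The round 5 call was lost without its replicate 1 (-1.62, adjusted p = 0.0523) or 2 (-1.57, adjusted p = 0.0598). Of 4 ensheathing and engulfing genes, ced-6 and Ced-12, which act in engulfment, were lower in each round (ced-6 -1.82, -2.07 and -1.94, each ± 0.44, and Ced-12 -1.37, -1.20 and -1.17, each ± 0.20). Of 4 measured fate and pan-glial genes, hkb (-4.62, -4.53 and -4.21, each ± 0.44) and zfh1 (-1.37, -1.74 and -1.91, each ± 0.39) were lower, and the zfh1 call of round 1 was lost without its replicate 2 (-1.08, adjusted p = 0.0601). Of 9 genes of glutamate and GABA handling, 5, 4 and 4 were lower and 0, 1 and 1 higher. The shares over all tested genes were 14.3%, 13.7% and 13.5% lower and 12.7%, 12.9% and 12.3% higher, for this and the other lists. The round 1 call of gb (-1.06) and the round 5 call of Gdh (1.01) dropped under 2-fold when single arrays were left out (gb -0.97 without replicate 3, Gdh 0.89 without replicate 1). The largest drop was that of Gad1, a neuronal enzyme of GABA synthesis (-3.94, -8.84 and -8.80, each ± 0.58). Gabat, the GABA transaminase, was at -3.23, -3.24 and -3.23 (each ± 0.29).

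**Figure D5:**
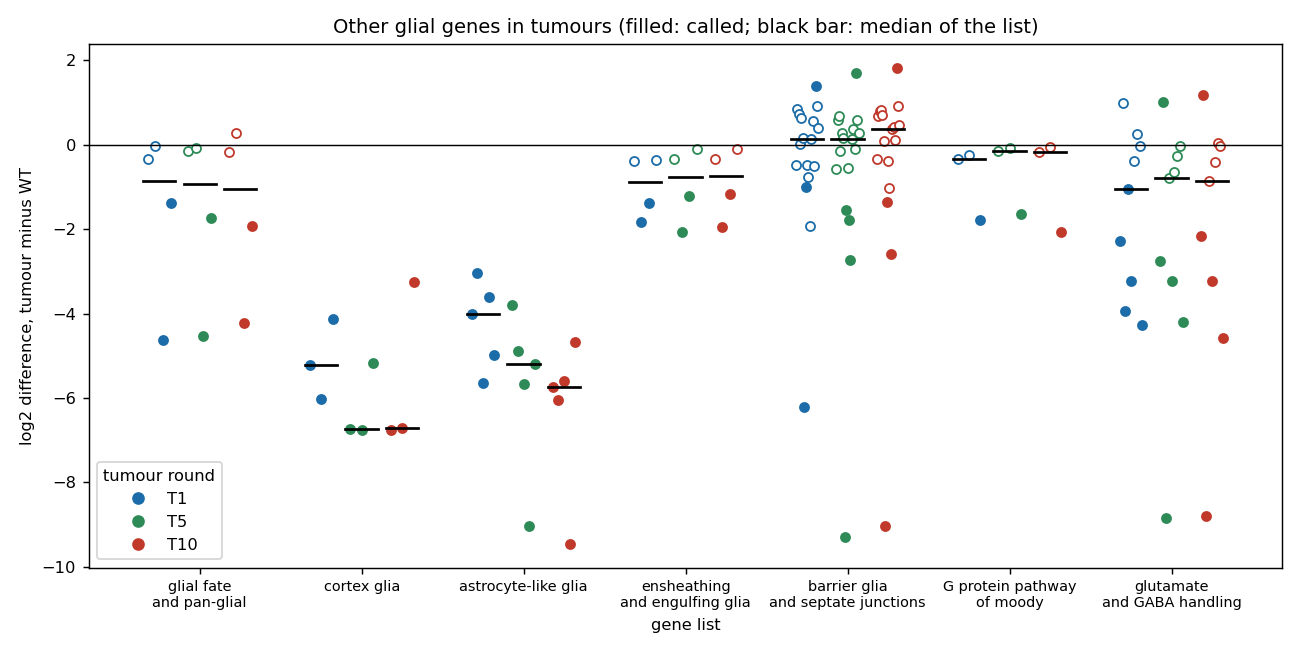
Log2 difference from WT (vertical axis) of every tested gene of 7 other glial gene lists (horizontal axis), with 1 point per gene and round (T1, T5 and T10), filled where called, and black bars for the list medians. The cortex and astrocyte-like lists lie below 0 in all 3 rounds, and the barrier list is centred near 0 with Mdr65 far below. The list of glutamate and GABA handling also holds neuronal genes.

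Of the 44 distinct genes tested in these lists, 4 were called lower than WT in ts1 brains at 29 °C at EMBL, 3 at IRB, 2 in ts1 brains at 17 °C, 1 in E2 brains at 29 °C, 5 in E2 brains at 17 °C and 1 in ts1/E2 brains, and none was called higher. In the same order, 3.07%, 5.68%, 0.629%, 5.08%, 2.29% and 2.53% of all tested genes were called lower. The shares called higher were 3.69%, 3.11%, 0.557%, 3.98%, 1.98% and 3.34%. In E2 brains at 17 °C Cyp4g15 (-2.21 ± 0.38, adjusted p = 0.000540) and Gat (-3.03 ± 0.50, adjusted p = 0.000329) were lower than WT in every setting run, while wrapper, zyd and alrm were not called there. The difference of hoe1 in these brains (-3.85 ± 0.96, adjusted p = 0.0185) lost its call without replicate 2 of E2 at 17 °C (-3.24, adjusted p = 0.109) or WT replicates 1 (-3.57, 0.0899) or 2 (-3.62, 0.0899). Between 29 °C and 17 °C in E2 brains, 3 of the 44 genes were higher at 29 °C (3.33% of all tested genes), among them 2 of the 3 cortex glia genes. Gat differed by 2.80 ± 0.50 (adjusted p = 0.000540), Cyp4g15 by 1.32 ± 0.38 (adjusted p = 0.0312) and hoe1 by 3.10 ± 0.96 (adjusted p = 0.0473). The Gat call held without any single array. The calls of Cyp4g15 and hoe1 were lost without replicate 1 (1.29, adjusted p = 0.0971, and 3.33, adjusted p = 0.0886), replicate 2 (1.33, 0.0695, and 2.50, 0.157) or replicate 3 (1.33, 0.0778, and 3.48, 0.0634) of E2 at 17 °C, or replicate 3 of E2 at 29 °C (0.90, 0.112, and 2.33, 0.126). In ts1 brains, 1 of 44 was lower at 29 °C (0.52% of all tested genes), htl (-1.41 ± 0.38, adjusted p = 0.0434). Its call was lost without replicate 2 (-1.08, 0.243) or 3 (-1.48, 0.0870) of ts1 at 17 °C, or replicate 1 (-1.42, 0.105) or 2 (-1.23, 0.202) of ts1 at 29 °C. Gabat was lower than WT in all 6 comparisons of mutant brains within a site, by -3.07 ± 0.29 in ts1 at IRB, -1.31 in ts1 at EMBL, -1.37 in ts1 at 17 °C, by -2.94 in E2 at 29 °C, -2.48 in E2 at 17 °C and -2.80 in ts1/E2. The call in ts1 at 17 °C was lost without its replicate 3 (-1.27, adjusted p = 0.0573) or WT replicate 4 (-1.12, adjusted p = 0.0756). In ts1 brains at 29 °C and IRB, hkb was at -3.01 ± 0.44 (adjusted p = 5.00e-05) and wun2 at -2.51 ± 0.58 (adjusted p = 0.00589). At EMBL zfh1 was at -2.04 ± 0.39 (adjusted p = 0.00120).

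Between genotypes at 29 °C, 5 of the 44 genes were higher in ts1/E2 than in ts1 brains (5.34% of all tested genes), among them all 3 cortex glia genes. Cyp4g15 differed by 1.37 ± 0.38 (adjusted p = 0.0227), hoe1 by 3.96 ± 0.96 (0.00980), wun2 by 2.11 ± 0.58 (0.0219), hkb by 1.85 ± 0.44 (0.00883) and Gat by 1.81 ± 0.50 (0.0226). Without replicate 2 of ts1/E2 all 5 calls were lost (Cyp4g15 1.27, adjusted p = 0.103, hoe1 3.70, 0.0519, wun2 2.0, 0.0909, hkb 1.59, 0.0681, Gat 1.73, 0.0894). Without replicate 6 of ts1, an array that stood apart, 4 were lost (Cyp4g15 0.93, adjusted p = 0.156, hoe1 2.03, 0.0524, wun2 2.06, 0.0575, Gat 1.75, 0.0614). Without replicate 1 of ts1/E2 the calls of Cyp4g15 (1.40, adjusted p = 0.0647), wun2 (1.82, 0.115) and Gat (1.69, 0.0914) were lost, and without replicate 4 of ts1 that of Gat (1.62, 0.0980). In E2 against ts1 brains 1 of 44 was higher (4.16% of all tested genes), hkb by 2.58 ± 0.44 (adjusted p = 0.000475), a call that held without any single array.

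Markers of other cell types also differed from WT in tumours, and their part in the glial differences was not tested. Their counts stand against 14.3%, 13.7% and 13.5% of all tested genes called lower and 12.7%, 12.9% and 12.3% called higher in rounds 1, 5 and 10. Of 7 hemocyte genes, Hml (4.14, 3.05 and 3.23 higher) and NimC1 (4.24, 3.57 and 4.83 higher) were called higher in rounds 1, 5 and 10, and Pxn was lower. In round 10, eater and crq were higher too, crq by less than 2-fold without replicate 2 (0.97). The summed signal of the 7 genes, as log2, ran from 10.67 to 11.35 over tumours and from 9.79 to 10.83 over WT. Some mutant brains reached the tumour range, with 10.87 to 11.59 in E2 at 17 °C, 10.81 to 11.38 in E2 at 29 °C and 10.76 to 10.86 in ts1 at 29 °C and IRB. It was 9.53 to 9.89 in ts1 at 29 °C and EMBL, 10.03 to 10.51 in ts1 at 17 °C and 10.43 to 10.63 in ts1/E2 brains. Of 7 neuronal genes 4, 5 and 6 were lower, with Syn at -5.12, -6.68 and -6.74, and their summed signal was 11.08 to 12.27 in tumours and 13.33 to 14.45 in WT. Of 8 optic lobe and lamina genes 4, 6 and 6 were lower, and eya was higher in round 1, with a summed signal of 10.54 to 11.97 in tumours and 12.73 to 12.83 in WT. Of 6 neuroblast and ganglion mother cell genes at most 1 was called in any round, and their summed signal was 12.17 to 13.11 in tumours and 12.16 to 12.52 in WT. Of 3 measured larval fat body genes 3, 2 and 3 were lower in tumours, and Fbp1 was also lower in ts1 brains at both temperatures and in E2 and ts1/E2 brains at 29 °C. Fbp2 was called lower in ts1 brains at IRB and in E2 brains at 29 °C, and Lsp2 in ts1 brains at IRB. Neither was called in ts1 brains at 29 °C at EMBL (Fbp2 -0.82, Lsp2 -2.06), in ts1 brains at 17 °C (-4.08, -3.80) or in ts1/E2 brains (-0.99, -0.66). Of 3 measured muscle genes 2 were higher in round 1 and none in rounds 5 or 10, and both calls were lost without replicate 2 of round 1 (Act88F 2.31, adjusted p = 0.0707, and Tm2 1.27, adjusted p = 0.221). Of 2 tested tracheal genes none was called.

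In the order of the 9 group means, neighbouring groups did not overlap in 2 of 8 steps for repo, alrm, naz and Gs2, in 1 for wrapper and zyd, and in 0 for gcm, gcm2 and moody. The order was taken from these same values and sets arrays of both sites side by side. The share of such steps over all tested genes was not computed, so the counts are descriptions only. The 9 glial genes were also set side by side by their pattern over the 11 group-by-site means. These means share arrays, scaling and the large step from brains to tumours, so the correlations are descriptions. Pearson's r with repo was 0.98 for wrapper, 0.97 for zyd, 0.96 for alrm, 0.95 for naz, 0.92 for moody and 0.90 for Gs2. It was 0.65 for gcm2 and 0.41 for gcm. The highest r of gcm was with gcm2, at 0.85, and its lowest with Gs2, at 0.13. Among 6534 genes whose means spanned at least 1 log2 unit, those most like repo were beat-Vb (0.994), Kap3 (0.993) and CG5282 (0.991). The gene most like wrapper was CDase (0.996), and Mdr65 was among the 3 closest to alrm (0.992). The closest to gcm was Sur (0.924), to gcm2 CG7991 (0.972), to zyd CG4629 (0.985), to naz CG1537 (0.993), to Gs2 CG14989 (0.973) and to moody Hexo2 (0.984).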

How the data were processed

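RNA of larval brains and cultured tumours was hybridised to 33 arrays, and the authors deposited 1 table of log2 expression values for all samples. The values were made with GCRMA, per the submitters' processing notes, whose version is not given in the sources used here. The WT means were equal at both sites, a centring that no label used here describes. Probe sets were named through the platform annotation, and those with several genes or none were left out. For each gene the probe set with the highest mean was kept.

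Group-by-site means were fitted in limma 3.58.1 (R 4.3.3) with empirical Bayes variances, and p-values were adjusted by Benjamini-Hochberg over 8264 genes. The labels do not say whether arrays came from separate pools of animals, so the p-values rest on the spread among the arrays alone, which may be technical. The fit was tested on simulated data. The alternatives were an additive site term, pooled sites, no low-value filter, renewed quantile normalization, array weights, a replicate block, each site alone, the adjusted p alone, the mean of a gene's probe sets, the 5 arrays that stood apart left out, and each replicate left out.

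The 10 genes were named throughout, and from each other list up to 3 called genes per comparison with the largest absolute difference. Values of some listed genes are also given where they were not among those 3, chosen after their values were seen. Members and lists were chosen with earlier results of these data known. A search of promoters for the Gcm motif was planned and not run, since no promoter sequences were used here.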

Additional observations from a re-analysis of the deposited data

Results flagged for a closer look

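In ts1 brains at 29 °C, gcm stood at 4.21 on replicate 5 (IRB), the lowest of 6 arrays. Its gap to the next array was 0.715 of the group's whole range, above the 95% critical value of 0.625 for 6 samples. Of 18 sets of 6 arrays examined (9 genes in WT and in ts1 brains at 29 °C) this was the only 1, and chance alone marks about 1 in 20.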

How the results depend on the processing

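No called difference of a member changed its sign under any alternative, but 50 of the 189 differences, none of them called, did so under at least 1. Among them, without the 5 arrays that stood apart, zyd in ts1 at 29 °C went from -0.07 to 0.12 at EMBL and the site effect of repo from 0.60 to -0.08. The number of members called moved by over 1.5 times in these cases, and the cause was not tested. With array weights it was 5 instead of 2 for ts1 against WT at IRB, 3 instead of 1 for ts1/E2 against WT, 4 instead of 2 from round 1 to 5, 3 instead of 0 from round 5 to 10, 2 instead of 0 for ts1/E2 against ts1 and for ts1 at 29 °C against 17 °C, and 1 instead of 0 for the site effect, E2 at 17 °C against WT and E2 against ts1. The call between the E2 temperatures was lost (0 instead of 1) with an additive site term, pooled sites, no filter, quantile normalization or the replicate block. ts1 at 29 °C against 17 °C gave 1 instead of 0 with pooled sites, quantile normalization or the block. ts1 at IRB gave 1 instead of 2 with no filter or with the block, round 10 against round 1 gave 1 instead of 2 with quantile normalization, and E2 at 29 °C against WT gave 2 instead of 1 with pooled sites. Without the 5 arrays that stood apart, ts1 at EMBL gave 1 instead of 2 and ts1/E2 gave 2 instead of 1.

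Leaving out single replicates gave 0 to 2 calls for ts1 at EMBL, 1 to 2 at IRB, 1 to 3 for their mean, 1 to 3 for E2 at 29 °C, 0 to 2 between the E2 temperatures, 8 to 9 for round 1 against WT, 7 to 8 for round 10, 5 to 6 for round 1 against ts1 brains, 0 to 3 from round 1 to 5 and 1 to 2 from round 1 to 10. Same-numbered samples did not deviate together throughout. In 0 of 36 group pairs was every correlation over 0.1, and single correlations ran from -0.58 to 0.51. With 3 same-numbered samples in most group pairs, this check cannot exclude pairing, for example between tumour rounds. The replicate block changed 3 of 189 calls: naz for ts1 at IRB (adjusted p = 0.0544), gcm2 between the E2 temperatures (adjusted p = 0.0604) and repo between the ts1 temperatures (-1.36, adjusted p = 0.0432).

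Of 329 counts over all genes, 71 moved by over 1.5 times, 39 of them when 1 array was left out and 15 with array weights. Those of the 3 tumour rounds against WT, and of round 1 against ts1 brains, did not. The main count and the lowest and highest moved counts were 559 and 1094 for ts1 at EMBL, 726, 364 and 1596 at IRB, 608, 983 and 1005 for their mean, 304, 173 and 2134 for the site effect, 98, 55 and 274 for ts1 at 17 °C, 749, 357 and 2460 for E2 at 29 °C, 353, 183 and 987 for E2 at 17 °C, and 485, 297 and 1469 for ts1/E2. They were 539, 356 and 1495 between the E2 temperatures, 187, 94 and 590 between the ts1 temperatures, 31, 18 and 95 for the difference between those effects, 371 and 707 from round 1 to 5, 24, 14 and 300 from round 5 to 10, 488 and 856 from round 1 to 10, 9, 1 and 199 for ts1/E2 against E2, 529, 198 and 1170 for ts1/E2 against ts1, and 485, 290 and 1202 for E2 against ts1. Quantile normalization moved the share of higher calls from 70.9% to 56.9% for E2 against ts1 and from 77.8% to 88.9% for ts1/E2 against E2. Low signal limits gcm2, naz, wrapper, zyd and alrm in tumours.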
